A study of Homo sapiens with 13 samples.

Results

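The genes examined are 10 of the 19970 protein-coding genes in the RefSeq annotation of GRCh38.p14: SMARCA4, SMARCA2, SMARCC1, SMARCC2, SMARCB1, ARID1A, ARID1B, ARID2, PBRM1 and BCL7C, which encode subunits of the BAF and PBAF complexes. They were chosen by name, with no threshold on a measured value, though with earlier results of these data known. Each was examined over its RefSeq span plus 50 kb to both sides, called its window. CUT&RUN, in which an antibody guides a nuclease to cut out the DNA beside a protein or a histone modification, had been applied to PANC1 cells, an established line from a human pancreatic ductal carcinoma. All libraries came from 1 kind of cell, a stable line labelled as expressing BRG1 (BRG oe), and no cells without the added BRG1 were analysed here. The labels name no promoter, no form of the added sequence and no clone, and they state that cells were mildly crosslinked. There were 2 replicates for each of 6 targets, namely BRG1, SMARCC1, NRF2, H3K4me3, H3K27ac and H3K4me1, which makes 12 libraries, and the labels do not say whether replicates were separate cultures.

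BAF and PBAF are multi-subunit machines that use the energy of ATP to slide or evict nucleosomes and so open DNA to transcription factors. Each complex is built around 1 catalytic ATPase, either BRG1 (gene SMARCA4) or BRM (gene SMARCA2), on a core of SMARCC1, SMARCC2 and SMARCB1. ARID1A or ARID1B mark a complex as BAF, while ARID2 and PBRM1 mark it as PBAF, and several of these genes are recurrently mutated in cancer. H3K4me3 lies at active promoters, H3K27ac at active promoters and enhancers, and H3K4me1 at enhancers. NRF2 is the transcription factor of the antioxidant response.

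H3K4me3 regions of both replicates lay at the start of 4 of 5 epithelial marker genes (all but KRT8, which had H3K27ac instead) and of 2 of 2 mesenchymal ones, VIM and ZEB1. They lay at 0 of 3 blood cell genes and 0 of 4 acinar and endocrine genes, so the promoters of the line carried epithelial and mesenchymal markers side by side. The factor libraries were small, with 3213 and 6610 BRG1 peaks, 600 and 572 SMARCC1 peaks and 1538 and 919 NRF2 peaks, against 17752 to 37283 peaks in the libraries of the histone marks. The peak lists hold no read counts, so their depth is unknown and places without a peak may have been sequenced too thinly to give one. The strength of a peak is its fold enrichment, the authors' deposited value, and a region is a stretch of overlapping peaks (at least 1 bp) with a peak of both replicates. Of the epithelial genes with H3K4me3, EPCAM was the weakest, with 2.85 and 5.55, and its H3K27ac was listed in replicate 2 alone. KRT18, KRT19 and SOX9 ranged from 12.8 to 41.7 by H3K4me3, and VIM and ZEB1 from 20.0 to 28.6.

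The start sequences of 5 of the genes are printed because they include the genes with the highest and the lowest H3K4me3 at the start, described next, and both ATPase genes. Each runs 5′ to 3′ on the gene's own strand over the 250 bases before a RefSeq start (GRCh38.p14) and the 50 bases from it on. Capitals mark short motifs found by letter match on either strand. SP/KLF factors were searched as GGGCGG, which is a common promoter motif. ETS factors were searched as CCGGAAG, while AP-1 was searched as TGANTCA. The NRF2 element was taken as TGACNNNGC and the CREB motif as TGACGTCA. The E-box was read as CACGTG, whereas YY1 was read as AAGATGGC. The CCAAT box and the NRF1 motif were searched too, as was the TATA box with the letters TATAAA. The NRF2 and AP-1 letters can overlap.
SMARCA4, first start, chr19:10960780-10961079, plus strand: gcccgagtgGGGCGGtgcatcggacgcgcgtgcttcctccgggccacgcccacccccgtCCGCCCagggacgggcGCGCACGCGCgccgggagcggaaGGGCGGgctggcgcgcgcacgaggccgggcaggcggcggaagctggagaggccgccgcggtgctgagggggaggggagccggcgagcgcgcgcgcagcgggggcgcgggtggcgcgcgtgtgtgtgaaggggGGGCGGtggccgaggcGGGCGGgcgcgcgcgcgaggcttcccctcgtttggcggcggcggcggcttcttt
SMARCA2, first start, chr9:2015097-2015396, plus strand: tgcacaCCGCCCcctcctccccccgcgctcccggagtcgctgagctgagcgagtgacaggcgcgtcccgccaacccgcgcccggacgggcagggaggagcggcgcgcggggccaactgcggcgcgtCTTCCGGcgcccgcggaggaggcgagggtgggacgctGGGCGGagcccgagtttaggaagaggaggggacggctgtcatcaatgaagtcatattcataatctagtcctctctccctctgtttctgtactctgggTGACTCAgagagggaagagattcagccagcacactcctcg
SMARCB1, chr22:23786716-23787015, plus strand: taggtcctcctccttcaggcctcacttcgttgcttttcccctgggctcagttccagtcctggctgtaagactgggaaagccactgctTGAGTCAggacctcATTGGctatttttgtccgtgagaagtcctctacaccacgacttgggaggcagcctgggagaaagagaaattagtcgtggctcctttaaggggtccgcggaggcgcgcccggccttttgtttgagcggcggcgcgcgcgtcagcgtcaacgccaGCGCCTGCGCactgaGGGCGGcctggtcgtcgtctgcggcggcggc
ARID1B, second start, chr6:156777128-156777427, plus strand: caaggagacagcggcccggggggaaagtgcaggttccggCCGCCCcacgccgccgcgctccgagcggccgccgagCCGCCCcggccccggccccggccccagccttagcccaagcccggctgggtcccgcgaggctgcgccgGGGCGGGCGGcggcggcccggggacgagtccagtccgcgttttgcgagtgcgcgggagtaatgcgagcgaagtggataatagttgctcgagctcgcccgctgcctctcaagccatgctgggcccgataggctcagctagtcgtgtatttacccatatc
BCL7C, chr16:30894028-30894327, minus strand: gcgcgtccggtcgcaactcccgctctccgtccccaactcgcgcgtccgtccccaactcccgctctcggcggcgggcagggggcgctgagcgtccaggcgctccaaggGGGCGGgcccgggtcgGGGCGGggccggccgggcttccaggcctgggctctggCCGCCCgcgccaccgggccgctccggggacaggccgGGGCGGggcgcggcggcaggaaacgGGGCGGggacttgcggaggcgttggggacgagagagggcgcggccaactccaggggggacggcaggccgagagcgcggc

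RefSeq lists 13 starts for 7 of the 10 genes, and none for SMARCC1, SMARCC2 and ARID2, for which both ends of the span were taken as possible starts. The first SMARCA4 start is among the richest in CpG of the 22131 start sequences in the table, with 55 CpG dinucleotides and 81.3% G or C, against a median of 21 and 62.3%. It holds 5 SP/KLF matches and 1 NRF1 match. The first SMARCA2 start has 30 CpG and 66.7% G or C, with SP/KLF, ETS and AP-1 matches. The SMARCB1 start has 25 CpG and 61.7% G or C and holds AP-1, CCAAT, NRF1 and SP/KLF matches. BCL7C has 45 CpG with SP/KLF as its only motif, and the second ARID1B start has 39 CpG, likewise with SP/KLF only.

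Over all 22131 start sequences, 56.3% hold an SP/KLF match, 34.6% a CCAAT box, 13.8% the NRF2 element, 12.8% ETS, 9.46% TATA, 8.34% the E-box, 7.40% NRF1, 6.15% AP-1, 3.54% YY1 and 2.26% CREB. Of the 13 starts, 8 hold SP/KLF, 3 a CCAAT box, 2 AP-1, 2 NRF1, 1 ETS, 1 an E-box, 1 a TATA box and 0 the NRF2 element, CREB or YY1. A match is a run of letters and not a shown binding site.

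H3K4me3 marked the start of every one of the genes. A region of both replicates lay within 1000 bp of a start in 10 of 10, where 59.0% of all coding genes have one, and in the window in 10 of 10, where 78.2% do. The fold enrichment at the start was highest at ARID1B, which encodes a DNA-binding subunit of BAF, with 33.6 in replicate 1 and 20.8 in replicate 2. SMARCA4, the gene of the BRG1 ATPase itself, had 29.0 and 24.3, ARID2, the ARID subunit of PBAF, 27.3 and 22.5, and ARID1A, the counterpart of ARID1B, 23.7 and 26.1. The ranges of these 4 genes overlapped one another, and the lower ARID1B value also lay within the ranges of SMARCC2 and SMARCA2 further down.

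ARID1A and SMARCC2, the next in the order, did not overlap. SMARCC2, a scaffold subunit, had 17.6 and 21.5, SMARCA2, the gene of the BRM ATPase, 15.9 and 21.4, and PBRM1, the bromodomain subunit of PBAF, 17.4 and 15.7. BCL7C, a small accessory subunit, had 13.9 and 15.9, and SMARCC1, the paralog of SMARCC2, 14.9 and 11.1. From SMARCC2 to SMARCC1, each gene overlapped the next in the order. SMARCB1, a core subunit lost in rhabdoid tumours, stood lowest with 9.11 and 6.50, both under the lower SMARCC1 value.

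Beside all coding genes, many of which had no region at the start, the 10 genes spanned from the middle to near the top of the range. The mean of both replicates at ARID1B (27.2) exceeded that of 92.1% of all 19970 coding genes, those without a region included, and at SMARCB1 (7.81) it exceeded 50.3%. The median of the 10 genes was 19.1, against 15.8 over the 11792 coding genes with a region at the start. The 18 other BAF, PBAF and ncBAF subunit genes with one had a median of 19.5, and 13 ATPase genes of other remodeller families also 19.5. These medians lay close together. Among the 10 genes, BCL7C (14.9), SMARCC1 (13.0) and SMARCB1 (7.81) had means under the 15.8 of coding genes with a region. No test between genes was made.

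The widest H3K4me3 regions were not always the highest. The widest regions at a start were those of ARID1A (3609 bp), SMARCA2 (3414 bp), ARID2 (3153 bp) and ARID1B (3120 bp), against a median of 1794 bp over coding genes. SMARCA4, second in height, had a region of 1505 bp, chr19:10960926-10962430. BCL7C (945 bp) and SMARCB1 (726 bp) had the narrowest. At SMARCA2 and SMARCA4 a lower region lay just before the start, with 9.31 and 9.73 at chr9:2014279-2015130 and 5.38 and 9.63 at chr19:10960054-10960704.

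**Figure D1:**
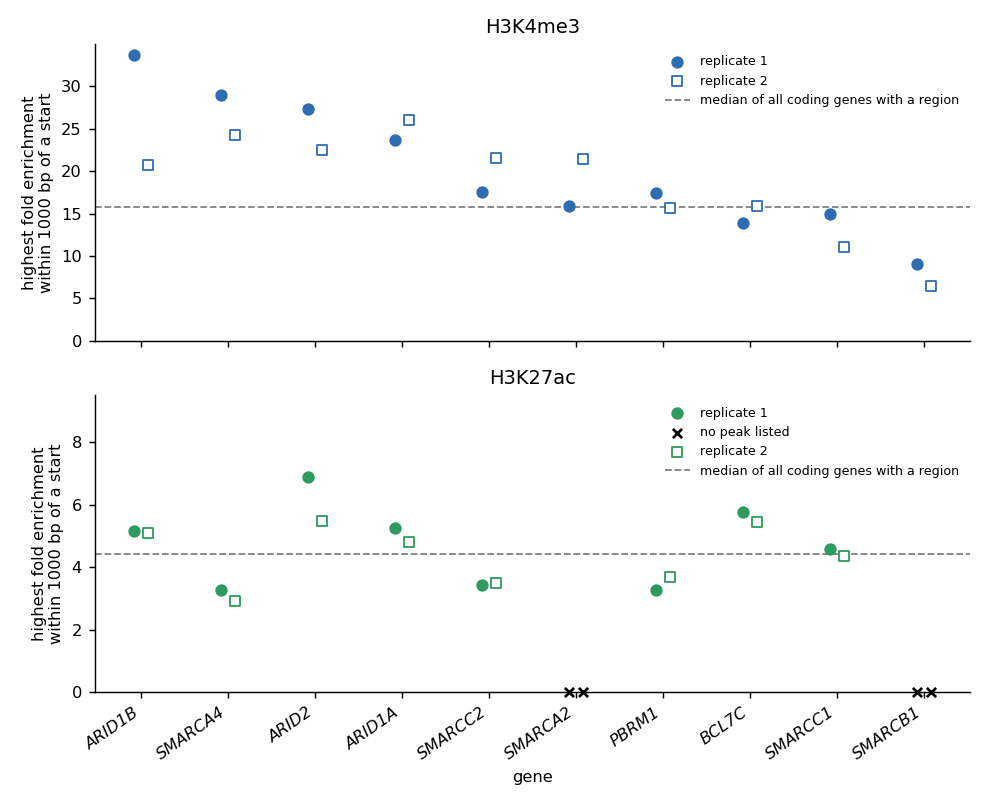
Highest fold enrichment of H3K4me3 (top) and H3K27ac (bottom) within 1000 bp of a start, for each gene and replicate, with the genes in order of mean H3K4me3. The dashed line is the median over all coding genes with a region there, and crosses mark genes with no peak listed, which for H3K27ac are SMARCA2 and SMARCB1.

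H3K27ac lay within 1000 bp of the start in 8 of 10 genes, where 44.7% of all coding genes have a region, and in the window in 10 of 10, where 71.6% do. ARID2 was highest with 6.89 and 5.47, followed by BCL7C with 5.75 and 5.46, ARID1B with 5.15 and 5.09 and ARID1A with 5.26 and 4.82. The ARID1B values came from different regions: chr6:156776619-156777633 had 5.15 and 4.54, and chr6:156777850-156779714 had 4.57 and 5.09. SMARCC1 had 4.58 and 4.36, PBRM1 3.27 and 3.70, SMARCC2 3.43 and 3.49 and SMARCA4 3.27 and 2.91. SMARCA4 was thus second of the 10 by H3K4me3 and last of the 8 by H3K27ac, with both of its values at or under the lowest of the other 7 genes.

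The order of the 2 marks differed at BCL7C as well, which was eighth by H3K4me3 and second by H3K27ac. The median of the 8 genes was 4.66, against 4.43 over the 8934 coding genes with a region and 4.75 in 15 other subunit genes. It was 3.79 in the 14 ATPase genes of other remodeller families. At SMARCA2 the acetylation lay just beyond the 1000 bp, inside the gene: the first region, chr9:2016365-2016712, began 1018 bp from the start with 2.89 and 3.91, and the second, chr9:2017296-2018011, 1949 bp from it with 4.74 and 4.60. Both fell within the broad SMARCA2 H3K4me3 region. SMARCB1 had no H3K27ac peak at its start in either library, although its H3K4me3 was listed in both.

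H3K4me1 regions were listed at no start (0 of 10, where 5.52% of all coding genes have a region) and lay in the window of 5 of 10 genes, SMARCA4, ARID1A, ARID1B, PBRM1 and BCL7C, where 52.6% of all coding genes have one. The count fell from 5 to 1 with peaks of −log10 q of at least 1.3, and likewise with −log10 p of at least 5. The spans of the 10 genes are long, with a median of 120.9 kb against 24.2 kb over all coding genes, so that a window count has more sequence to draw on than that of a typical gene. Per 100 kb of window the genes held 0.733 H3K4me1 regions, against 1.15 over all coding genes, 2.24 H3K4me3 regions against 1.45 and 2.61 H3K27ac regions against 1.84. Of the 18 H3K4me1 regions, 14 were those of ARID1B.

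Many H3K4me3 and H3K27ac regions in these windows lay at the starts of neighbouring coding genes, and no H3K4me1 region did. Of 55 H3K4me3 regions, 15 lay at the start of 1 of the 10 genes and 26 at the start of another coding gene. A further 7 lay inside the gene and 7 outside it, away from the starts of coding genes. The 64 H3K27ac regions divided into 14, 28, 15 and 7 in the same order, and the 18 H3K4me1 regions into 0, 0, 16 and 2. Starts of noncoding genes did not enter these splits, and some regions called away from starts lay at those of LINC00938 and MIR762HG. The SMARCC2 window, on a gene-dense stretch, had 8 H3K4me3 and 11 H3K27ac regions, of which 1 and 2 lay at its own start and the others at RPL41, ESYT1, LOC124902942, MYL6, RNF41 and NABP2.

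**Figure D2:**
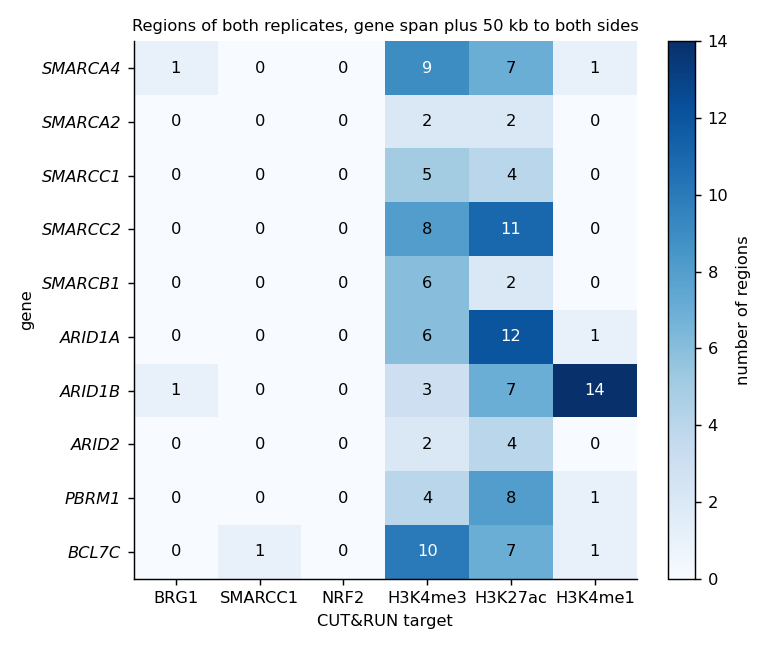
Number of regions with a peak of both replicates in the window of each gene (rows) for each CUT&RUN target (columns). Regions of the 3 factors are 0 or 1 in each cell, and the 14 H3K4me1 regions of ARID1B are the highest count.

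Regions of BRG1 and SMARCC1, themselves subunits, were few in these windows, as they were over all coding genes. A BRG1 region of both replicates lay in the window of 2 of 10 genes, SMARCA4 and ARID1B, where 9.32% of all coding genes have one, and at the start of 0 of 10, where 0.586% do. For SMARCC1 it was 1 of 10 in the window, BCL7C, where 1.6% of coding genes have one, and 0 of 10 at the start, where 0.285% do. NRF2 had 0 of 10 in the window, where 1.95% do, and 0 of 10 at the start, where 0.185% do. Per 100 kb of window the genes held 0.0815 BRG1 regions, against 0.0694 over all coding genes. For SMARCC1 it was 0.0407, from 1 region, against 0.0107, and for NRF2 0 against 0.0217. Counts this small lie near the background and are not a result about the genes as a list.

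Of 5 BRG1 peaks of replicate 1 in these windows, 2 were met by replicate 2, and of 8 peaks of replicate 2, 2 were met by replicate 1, while 64.2% and 31.1% of all BRG1 peaks were. Of 2 SMARCC1 peaks in each library, 1 was met by the other, while 28.3% and 29.5% of all SMARCC1 peaks were. Of 4 NRF2 peaks of replicate 1, 0 were met, while 25.5% of all its peaks were, and replicate 2 has no NRF2 peak in any of the 10 windows. The highest −log10 q among these peaks was 1.09 for BRG1, 0 for SMARCC1 and 5.41 for NRF2, so that only NRF2 peaks, all of replicate 1, reached 1.3. H3K4me3 peaks were met by the other replicate at 91.4% and 96.6%.

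The 19 other subunit genes showed a like picture. BRG1 regions lay in the windows of BCL7A and BCL7B, a SMARCC1 region in that of ACTL6A, and none at a start. The BCL7A one, chr12:122080445-122081039 with 3.35 and 4.17, fell inside MLXIP, and the BCL7B one, chr7:73578505-73579059 with 3.17 and 4.09, inside TBL2. The ACTL6A one, chr3:179604887-179605250 with 3.18 and 3.81, fell inside NDUFB5, so none of the 3 lay in the subunit gene itself. H3K4me3 marked the start of 18 of these 19 genes, all but ACTL6B, the subunit gene used by neurons, and H3K27ac that of 15, all but ACTL6B, BCL7A, DPF1 and DPF3. Among 14 ATPase genes of other remodeller families, 0 had a BRG1 region, 1, EP400, a SMARCC1 region, 13 H3K4me3 at the start and 14 H3K27ac there.

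SMARCA4 and SMARCA2, the genes of the alternative ATPases, had quite different surroundings. The SMARCA4 span, chr19:10961030-11062273 (gene ID 6597), lies among marked neighbours, and the strongest H3K4me3 of its window, 35.9 and 41.8, was at the start of TIMM29 and YIPF2, 30926 bp before it. The SMARCA2 span, chr9:2015347-2193620 (gene ID 6595), was marked at its first start alone, and its whole window held 2 H3K4me3 and 2 H3K27ac regions, all at or just past that start.

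At the start itself SMARCA4 had the higher H3K4me3: its lower value, 24.3, exceeded the higher SMARCA2 value, 21.4. Within 1000 bp of the start SMARCA4 had H3K27ac, 3.27 and 2.91, and SMARCA2 had none. The SMARCA2 regions 1018 and 1949 bp away had 2.89 and 3.91 and 4.74 and 4.60. The SMARCA4 values came from weak peaks, with −log10 q of 0.603 and 0.0913, under 1.3 in both libraries. The highest peaks of the first SMARCA2 region had 0.603 and 1.42, and those of the second 2.31 and 2.32. This difference at the start thus depends on the 1000 bp limit and on weak peaks. Later starts were mostly unmarked. The second SMARCA4 start, chr19:10984124, had no peak of any target within 1000 bp, and of the 3 later SMARCA2 starts 1, at chr9:2158464, had an H3K4me3 peak of 3.51 in replicate 1 only. An H3K4me1 region 15.2 kb into SMARCA4, chr19:10975835-10976566, had 3.91 and 4.54, whereas SMARCA2 had no H3K4me1 peak in either library.

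BRG1 had no peak within 1000 bp of any listed start of SMARCA4 or SMARCA2 in either library. The SMARCA4 span itself held no BRG1 peak in either library, and the region counted for SMARCA4 lies in the 50 kb beside it. At SMARCA2, BRG1 replicate 2 alone had a peak of 2.77 at chr9:2016509-2016708, 1162 bp from the first start. It lay under the first acetylated region and had a −log10 q of 0.

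**Figure D3:**
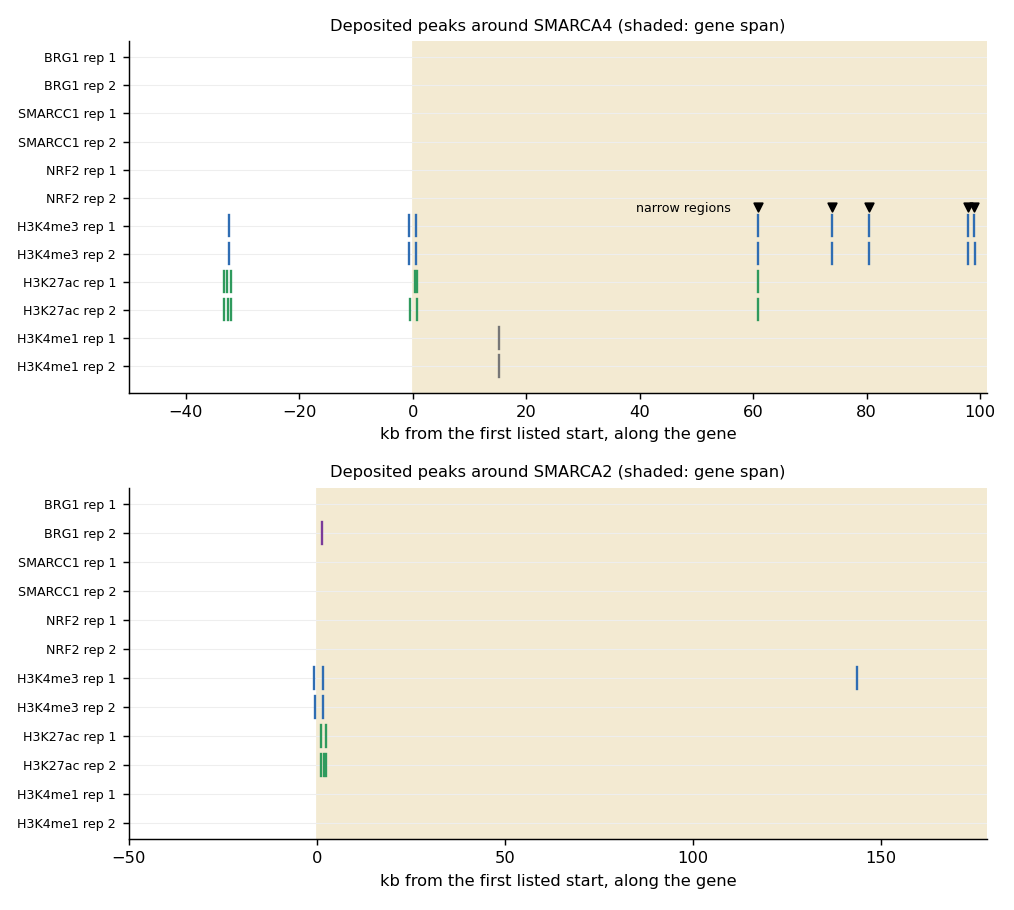
Deposited peaks of each library (rows) around SMARCA4 (top) and SMARCA2 (bottom), by distance in kb from the first listed start, from 50 kb before the gene to its far end. Each tick is the middle of a peak, the shading is the gene span, and the 5 triangles mark narrow H3K4me3 regions inside SMARCA4, which recur in both replicates and have no counterpart in SMARCA2.

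Inside SMARCA4, far from any start, H3K4me3 formed 5 narrow regions that both replicates shared. The first, chr19:11021723-11021956 (234 bp, 60.8 kb from the start), had 5.88 in both replicates. The second, chr19:11034799-11035117 (319 bp), had 6.37 and 7.15, and the third, chr19:11041315-11041553 (239 bp), had 5.98 and 4.93. The peaks of both libraries overlapped at all 3.

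The other pair lies near the gene's far end. The region chr19:11058665-11059032 (368 bp, 97.8 kb from the start) had 7.96 and 6.07, and chr19:11059678-11060155 (478 bp, 98.9 kb) had 7.96 and 5.68. Each of the 5 exceeded the median of 3.99 over the 897 narrow H3K4me3 regions that lie away from starts, and by mean fold each exceeded between 84.9% and 94.3% of them. Other targets were mostly missing at these places: the first of the 5 also had an H3K27ac region, chr19:11021750-11021964 with 5.25 and 3.74, the other 4 had none, and BRG1, SMARCC1, NRF2 and H3K4me1 had none at any.

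No other coding gene held as many. Counting regions of at most 500 bp that lie whole inside a gene and over 1000 bp from every listed start of any gene, 19520 coding genes had 0, 419 had 1, 27 had 2, 3 had 3 (IQANK1, KCTD2 and LOC124905135) and SMARCA4 alone had 5, which is 0.00501% of coding genes. The other 9 genes had 0 each, SMARCA2 and the longer ARID1B included. For H3K27ac and H3K4me1, counted in the same way, 160 and 386 coding genes had 5 or more. The pattern was noticed in these data and then counted in them, so its rarity has no independent check. With the peaks of replicate 1 alone, SMARCA4 again had 5 and 3 genes in all had as many, and with those of replicate 2 alone SMARCA4 was the 1 gene with 5.

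The annotation used gives no exons, so whether the regions fall on exons is not known here. The line carries added BRG1 of a form and site that the labels do not give, and the native gene and an added copy cannot be told apart in the SMARCA4 peaks. No library of cells without the added BRG1 was analysed here to set beside them.

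**Figure D4:**
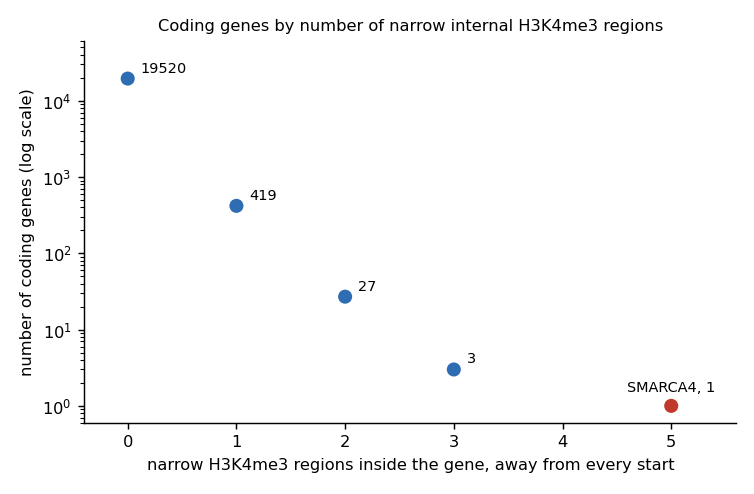
Number of coding genes (log axis) by the number of narrow H3K4me3 regions of both replicates inside the gene and over 1000 bp from every listed start. SMARCA4 is the single gene with 5, and 3 genes have 3.

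The core subunit genes had simple patterns. SMARCC1, chr3:47585269-47781893, was marked at the higher end of its span, and in its window H3K4me3 also lay at CSPG5 (5.37 and 5.85) and DHX30 (9.03 and 16.1). A stronger H3K4me3 region, chr3:47824692-47826127 with 15.7 and 24.8 and with H3K27ac of 6.40 and 5.92, lay 21554 bp from the listed DHX30 start. No factor peak was listed in the SMARCC1 window in any library, so that the SMARCC1 protein was not found at its own gene at the depth of these libraries.

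SMARCC2, chr12:56162359-56189483, was also marked at its higher end, and 2 NRF2 peaks of replicate 1 lay there. They were chr12:56189745-56190001 with 4.48 and chr12:56190058-56190266 with 5.84, and the latter had the highest −log10 q, 5.41, of all factor peaks in the 10 windows. Both peaks lie under H3K4me3 and H3K27ac, just beside TRS-CGA4-1, a transfer RNA gene at chr12:56190364-56190445. Replicate 2 listed no NRF2 peak in this window.

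SMARCB1, chr22:23786966-23838009, had a start split into a weak H3K4me3 region across it, 4.16 and 2.21, and a stronger one 484 bp away. Its neighbour CHCHD10, a mitochondrial protein gene, had 16.1 and 21.3. No factor peak and no H3K4me1 region was listed in the SMARCB1 window.

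Among the ARID genes, ARID1B had the most to show. It is the longest of the 10 genes, 434.8 kb on chr6:156776026-157210779, and its second start, whose sequence is printed above, carried the higher marks. The H3K4me3 region chr6:156776596-156777678, with 10.2 and 13.0, lay across the second start (72.0% G or C). It was also within 1000 bp of the first start (37.7% G or C), but no H3K4me3 region lay across that one. The higher region, chr6:156777740-156780859 with 33.6 and 20.8, began 362 bp past the second start. Of its 14 H3K4me1 regions, 1 lay 22950 bp before the gene and the others stretched from 46.9 to 405.5 kb into it. The strongest, chr6:156827807-156828912 with 6.66 and 6.34, held 2 BRG1 peaks of replicate 2, of 4.03 and 2.90, and none of replicate 1.

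The BRG1 region of ARID1B was 373 kb into the gene, chr6:157148896-157149132, with 3.52 and 4.01. It lay within an H3K27ac region, chr6:157148839-157149350 with 3.61 and 3.77, and without H3K4me1 or H3K4me3. An internal H3K4me3 region, chr6:157020560-157022167, had 9.37 and 13.3 with H3K27ac of 6.85 and 3.89, 199180 bp from the nearest listed start of any gene, and BRG1 replicate 2 alone had a peak of 2.74 in it. A BRG1 peak (2.90) and an NRF2 peak (3.34), each of replicate 1 only, overlapped 332 kb into the gene where no mark was listed.

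ARID1A, chr1:26696015-26782104, had 12 H3K27ac regions in its window, the most of the 10 genes. Of these, 3 lay at its own start and others at the starts of PIGV and ZDHHC18. A region 27.4 kb into the gene carried both H3K4me1, 5.13 and 3.69 at chr1:26723215-26723792, and H3K27ac, 3.93 and 3.25. BRG1 had 1 peak in each library but at different places, 3.49 at chr1:26705800-26706185 in replicate 1 and 2.90 at chr1:26744343-26744559 in replicate 2, the latter among H3K27ac peaks.

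The PBAF genes differed from each other. ARID2, chr12:45729706-45908037, was marked at its lower end, and a second H3K4me3 region, chr12:45725420-45728144 with 15.3 and 20.2, lay across the start of the long noncoding RNA gene LINC00938. Its window held no factor peak and no H3K4me1 region. PBRM1, chr3:52545367-52685913, shares its start region with GNL3, so its H3K4me3 and H3K27ac there cannot be told apart from those of that neighbour. Inside PBRM1 lay a BRG1 peak of replicate 2 (2.03) and an NRF2 peak of replicate 1 (4.35), neither met by the other replicate.

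BCL7C, chr16:30833626-30894077, held the single SMARCC1 region of the 10 windows, and there all 3 marks met. The region chr16:30876331-30876533, 17.5 kb from the start, had 3.03 and 2.60, with a −log10 q of 0 in both libraries. It lay in H3K4me3 of 16.3 and 14.8 (chr16:30874432-30876891), in H3K27ac of 4.97 and 5.15 (chr16:30875819-30876971) and in H3K4me1 of 3.84 and 3.09 (chr16:30876301-30876971). A further H3K27ac region, chr16:30875055-30875697, had 7.74 and 7.30, above the 5.75 and 5.46 at the BCL7C start.

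That place also lies at a listed start of another gene. The long noncoding RNA gene MIR762HG spans chr16:30875460-30895220, and a listed start of it lies 871 bp from the SMARCC1 region and inside the H3K4me3 region. BRG1 and NRF2 had no peak in the BCL7C window in any library. The strongest H3K4me3 of the window, 37.2 and 27.9, was at the start of ZNF629, where SMARCC1 replicate 2 alone had a peak of 3.13.

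**Figure D5:**
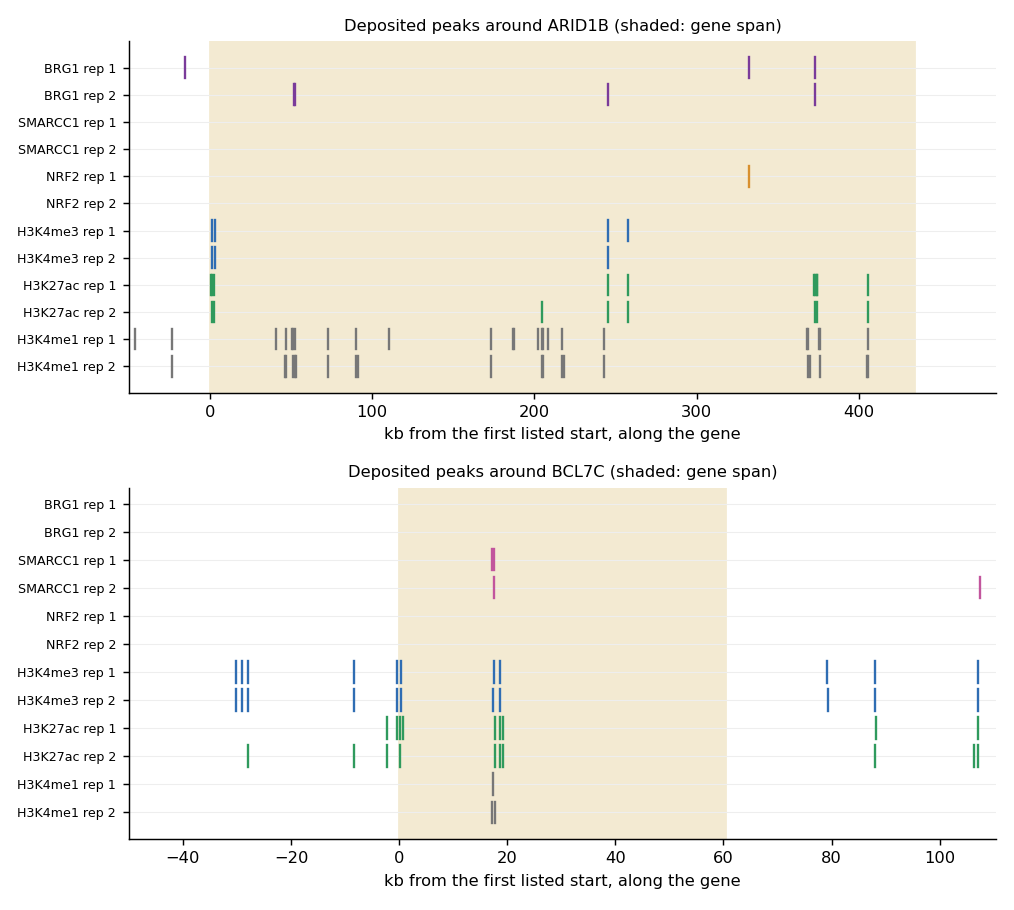
Deposited peaks of each library (rows) around ARID1B (top) and BCL7C (bottom), by distance in kb from the first listed start along the gene, with the gene span shaded. The 14 shared H3K4me1 regions spread over ARID1B, and at BCL7C the SMARCC1 ticks near 17.5 kb stand above ticks of all 3 marks.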

How the data were processed

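CUT&RUN peak lists of 12 libraries were used, 2 for each of 6 targets, grouped by the target and replicate number in the labels; the IgG library was not used here. Per the submitters' processing notes the tools were MACS2 2.2.7.1, Picard 2.23.9, Bowtie2 2.4.1 and SAMtools 1.9, on GRCh38; their settings are not given in the sources used here. Each peak's fold enrichment (a ratio) was deposited by the authors and not rescaled, and whether IgG served as its control is not stated. The −log10 p and −log10 q were deposited by the authors and served as thresholds in alternatives. The score deposited by the authors was read but not used. Peaks were called per library, without counts, so depth is unknown.

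Overlapping peaks (at least 1 bp) of a target were merged, and regions with a peak of both replicates were kept, on chromosomes 1 to 22 and X. A gene's window was its RefSeq span plus 50 kb to both sides. Its start was 1000 bp to both sides of each listed RefSeq start, or of both span ends where none is listed (15811 of 19970 coding genes have one). Strength was the highest fold enrichment per library. Narrow regions inside genes were at most 500 bp wide. Named were the 10 genes, genes holding or nearest to a printed peak, and other subunit genes with a factor region or without H3K4me3; IQANK1, KCTD2 and LOC124905135 were named after their values were seen. Members and lists were chosen with earlier results of these data known. Some results on a neighbouring gene are not reported here. Values are given as descriptions, and no tests were made. The merging and counting were tested on simulated peaks. Alternatives changed the margin, the peak thresholds, the overlap rule and the replicates. Python 3.11.15, NumPy 2.4.6, pandas 2.3.3 and matplotlib 3.10.9 were used.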

Additional observations from a re-analysis of the deposited data

How the results depend on the processing

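Most counts of genes held under the alternatives, but that of BRG1 in the window moved under most of them. The 2 genes with BRG1 in the window became 1 with the gene span alone, with a margin of 10 kb and with peaks given to the nearest coding gene, 0 at −log10 q of at least 1.3 or −log10 p of at least 5, and 5 with a peak of either replicate. With 1 replicate left out they ranged from 3 to 5. The 1 gene with SMARCC1 fell to 0 under both thresholds, and with 1 replicate left out remained 1. The 0 genes with NRF2 in the window became 3 with a peak of either replicate and ranged from 0 to 3 with a replicate left out; at the start they became 1, with a range from 0 to 1. H3K27ac at the start fell from 8 to 5 at −log10 p of at least 5 and to 5 when only the 7 genes with a listed start were counted, an alternative added after seeing the data. H3K4me1 in the window fell from 5 to 1 under both thresholds. These were 17 of 114 counts, and the other 97 stayed within 1.5 times. Many of the 97 were counts of 0 or of all 10 genes, which had little room to change. The SMARCA4 highest H3K4me3, 38.8 in the window, was 26.6 in the span or with 10 kb, where the TIMM29 start is left out, and its H3K27ac fell from 6.22 to 4.50. The 5 narrow H3K4me3 regions in SMARCA4 stayed at 4 or 5 under 9 alternatives chosen after seeing the data, and from 5 to 5 with a replicate left out. No other gene had as many, except 3 others when width was not limited and 2 others with replicate 2 left out. No paired analysis was made, since no tests were made. The unknown depth limits the counts of factor regions.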
